A study of Mus musculus with 2 samples.

Results

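Genes that encode precursors of neuropeptides were followed in pancreatic islets of RbΔK7 knock-in mice and of control mice. The 10 genes, Tac1, Vip, Npy, Gal, Cartpt, Nts, Grp, Adcyap1, Calca and Penk, are among the 34844 gene names on the array. The set was defined by gene name, but it was selected on measured values in part, because Tac1 and Vip were picked from earlier results of these data for their high ratio of mutant over control. Their ratios are therefore given as a description, and the other 8 genes were added as their relatives. Probes were taken where the gene name in both scanner files equalled the member's name, which gave 11 probes, 2 of them for Calca.

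RbΔK7 is a form of the retinoblastoma protein Rb that resists phosphorylation, and the study's title concerns diabetes in the mice that carry it. The mutant samples were islets of RbΔK7 knock-in mice, labelled with Cy5, and the control samples were islets of control mice, labelled with Cy3. Each of 2 two-colour arrays held 1 mutant and 1 control sample, grown and harvested independently, and islets were freed with collagenase and picked by hand. Strain, age, sex, zygosity and the number of animals in a sample are not given in the labels used here, and the controls are described only as such. No pair had its dyes exchanged, so genotype and dye cannot be told apart in any ratio, and with 2 arrays every error below is that of 2 ratios.

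Neuropeptides are cut from larger precursors at pairs of basic residues, stored in dense-core vesicles and released onto G protein-coupled receptors. In the pancreas most of them are known from nerve fibres and intrapancreatic ganglia that reach islets, acini and vessels. Vasoactive intestinal peptide, PACAP and gastrin-releasing peptide are parasympathetic transmitters that promote insulin release, while neuropeptide Y and galanin are sympathetic ones that restrain it. Substance P, made from Tac1, and CGRP, made from Calca, are carried by sensory fibres. Some endocrine cells also make these peptides, for instance CART and enkephalin in rodent islets.

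Each probe reads a short part of a transcript. Each is 60 bases long. Printed whole are 3 of them, with the codons of a lysine-arginine pair in capitals, the pair at which convertases cut. Whether the other probes lie in coding or untranslated parts was not computed. Such a pair in an open forward reading frame is found in 6.84% of all 55681 gene probes. The Npy probe (chromosome 6, 49773743 to 49777505, plus strand) and the Cartpt probe (chromosome 13, 100668967 to 100669956, minus strand) cover 3763 and 990 bases of the genome, far more than their own length, as probes across a splice junction do. The Nts probe lies on chromosome 10 from 101944967 to 101945026, minus strand (mm9, as the files place them). It runs through the end of neurotensin into the pair behind it, and the Npy probe does the same for neuropeptide Y. Read 5′ to 3′, these are:
Npy: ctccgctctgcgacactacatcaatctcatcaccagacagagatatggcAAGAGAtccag
Cartpt: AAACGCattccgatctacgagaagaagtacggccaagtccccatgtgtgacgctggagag
Nts: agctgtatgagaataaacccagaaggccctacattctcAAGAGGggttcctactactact

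For the 3 members at least 2-fold higher on both arrays, the last 30 bases of the probe are shown. They lie on chromosome 6 from 7512893 to 7512952, plus strand (Tac1), on chromosome 10 from 4699238 to 4699297, minus strand (Vip), and on chromosome 4 from 4060724 to 4060783, minus strand (Penk; all mm9). In GRCm38.p6 Vip lies on the plus strand, and no coordinates were converted between the builds. On chromosome 10 of mm9 the Vip probe stands in an unbroken run of 30 probes of 18 genes that all lie opposite to the strand RefSeq gives their gene, while over the array 99.5% of 21589 probes lie on it. Capitals mark AATAAA, the polyadenylation signal, which the whole probe of 10.1% of all gene probes holds on the printed strand.
Tac1: ttgtatgatgtgttgtgatagctaccattt
Vip: tcagaattgtatttctccagtgataggtac
Penk: atctctcctgacgaaacatcAATAAAtgct

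Tac1, Vip and Penk were the members with the highest ratios that both arrays shared. Tac1, the precursor of substance P and neurokinin A, had mean spot signals of 784 and 2940 in the mutant samples of replicates 1 and 2, against 36.1 and 234 in the control samples. On the normalized log2 scale its levels were 9.53 and 10.49 in the mutant samples and 6.78 and 8.52 in the control samples. Both mutant samples lay above both control samples, and the control sample of replicate 1 was not well above background. The ratios of mutant over control were 6.77-fold and 3.91-fold, or 2.76 and 1.97 on the log2 scale (mean 2.36 ± 0.56, SD, n = 2). These values chose the gene and support nothing further. In bulk RNA, more cells of a type and more RNA per cell cannot be told apart.

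Vip encodes vasoactive intestinal peptide and, from the same precursor, PHI. Its spot signals were 1390 and 3350 in the mutant samples, against 95.3 and 284 in the control samples. All 4 samples were well above background, so unlike Tac1 its ratio does not rest on a level near the floor. After normalization its log2 levels stood at 10.33 and 10.67 in the mutant samples and 7.65 and 8.78 in the control samples, again with no overlap. The ratios were 6.43-fold and 3.72-fold, or 2.68 and 1.89 on the log2 scale (mean 2.29 ± 0.56, SD, n = 2). The control samples of Vip differed from each other by 1.13 and its mutant samples by 0.34 on the log2 scale, so most of the difference between the arrays' ratios lay in the controls.

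Penk, the precursor of the enkephalins, had spot signals of 377 and 1180 in the mutant samples and 42.5 and 119 in the control samples. Its 2 ratios were 3.13-fold and 3.09-fold, with a mean log2 ratio of 1.64 ± 0.013 (SD, n = 2), so they were close on this scale. With Agilent's processed signals its log2 ratios were 3.45 and 1.92, and with median centring 2.03 and 2.62. The normalized log2 levels were 8.51 and 9.25 in the mutant samples and 6.87 and 7.62 in the control samples, where the replicate 1 sample was not well above background. Penk passed in the fit over all 22266 tested probes (limma adjusted p = 0.0297). It entered on the replicate 1 array through the mutant channel alone, which favours a higher mutant level there. It was not tested where both channels had to be above background. The call was lost with Agilent's processed signals, with a normexp offset of 0, with the series matrix values and when the channels were fitted without pairing (limma adjusted p from 0.148 to 0.725), while the mean ratio stayed between 1.64 and 2.69.

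**Figure D1:**
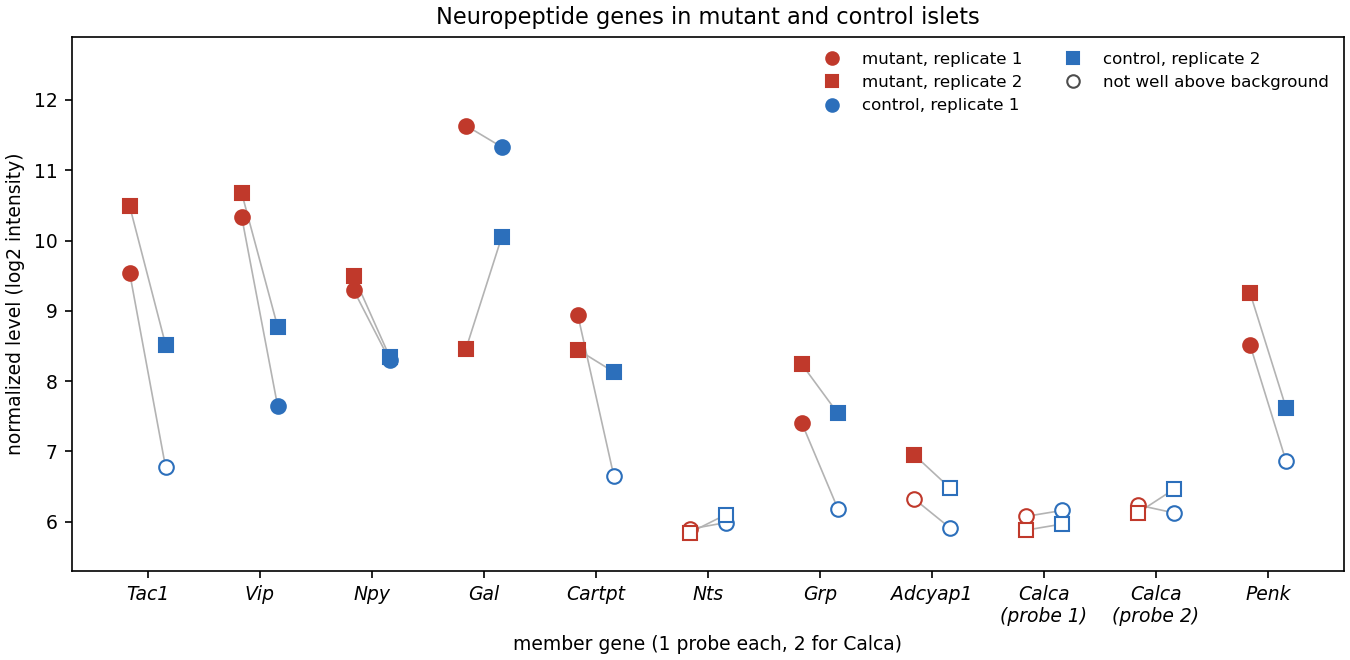
Normalized log2 intensity (vertical axis) of each member's probe in the 2 mutant samples (red, left) and the 2 control samples (blue, right), with circles for replicate 1, squares for replicate 2, grey lines joining the samples of 1 array and open symbols for spots not well above background. For Tac1, Vip, Npy, Cartpt and Penk both mutant symbols lie above both control symbols, for Cartpt by a small margin. The lines of Gal slope in opposite directions, and Nts and Calca have open symbols throughout.

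Npy, which encodes neuropeptide Y, had spot signals of 670 and 1430 in the mutant samples and 174 and 214 in the control samples, all well above background. Its control samples were nearly alike after normalization (8.30 and 8.35 on the log2 scale), and its mutant samples stood at 9.29 and 9.49. The ratios of 1.99-fold and 2.21-fold (mean log2 ratio 1.07 ± 0.11, SD, n = 2) fell just short of the threshold (limma adjusted p = 0.0542). It passed with median centring, with a trended and robust prior and without the filter on dim probes (limma adjusted p from 3.29e-06 to 0.00942). With median centring, 6664 of the 22266 tested probes passed as higher. Npy did not pass with processed signals, a normexp offset of 0, the series matrix values, both channels above background, or without pairing (limma adjusted p from 0.0506 to 0.528).

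Cartpt, the precursor of CART peptide, differed between the arrays. Its spot signals were 514 and 668 in the mutant samples and 35.7 and 178 in the control samples, of which the first was not well above background. Array 1 gave a ratio of 4.86-fold and array 2 one of 1.24-fold, with a log2 mean of 1.30 ± 1.39 (SD, n = 2), which did not pass (limma adjusted p = 0.340). It passed with median centring alone (limma adjusted p = 5.02e-07), and its mean reached 2.81 with processed signals without passing there. With median centring, 6664 of the 22266 tested probes passed as higher, and the medians over all of them were 0.39 and 0.84. Both mutant samples (8.94 and 8.45 on the normalized log2 scale) lay above both controls (6.66 and 8.13), by a small margin for replicate 2.

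Gal, which encodes galanin, was the 1 tested member with opposite signs. It had spot signals of 3630 and 708 in the mutant samples, against 1530 and 744 in the control samples, and all 4 were well above background. On the replicate 1 array it was 1.24-fold higher in the mutant, and on the replicate 2 array its ratio was 0.331, giving a log2 mean of -0.65 ± 1.34 (SD, n = 2) that did not pass (limma adjusted p = 0.630). After normalization it stood at 11.64 and 8.45 in the mutant samples and 11.33 and 10.05 in the control samples, so the 2 mutant samples differed from each other (by -3.18, replicate 2 minus replicate 1) by more than either pair did. Under median centring, without loess, the mean was 0.23, below the medians of all probes in that setting (0.39 and 0.84), and Gal did not pass there (limma adjusted p = 0.575). On the same replicate 2 array acinar markers were far lower in the mutant, as given below, and their part in the value of Gal was not tested.

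Grp, the precursor of gastrin-releasing peptide (chromosome 18, 66046107 to 66046166, mm9, plus strand), had spot signals of 165 and 549 in the mutant samples and 22.4 and 108 in the control samples. The control sample of replicate 1 was not well above background, and its signal lay below its local background of 28. The ratios were 2.32-fold and 1.62-fold, with a log2 mean of 0.95 ± 0.36 (SD, n = 2) that did not pass (limma adjusted p = 0.114). It passed with median centring, with a trended and robust prior and without the filter on dim probes (limma adjusted p from 0.000459 to 0.0386). With median centring, 6664 of the 22266 tested probes passed as higher. The mean of Grp reached 2.49 with processed signals without passing there. Nor did it pass with a normexp offset of 0, the series matrix values or without pairing (limma adjusted p from 0.364 to 0.772). The normalized levels overlapped between genotypes, with 7.40 and 8.24 in the mutant samples and 6.19 and 7.54 in the control samples. The mutant sample of replicate 1 thus lay below the control sample of replicate 2.

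The remaining 3 members were not measured well enough to be tested. Adcyap1, the precursor of PACAP, was well above background only in the mutant sample of replicate 2, with spot signals of 74.3 and 176 in the mutant samples and 26.8 and 49.4 in the control samples (chromosome 17, 93604401 to 93604460, mm9). Nts, the neurotensin precursor, had signals of 54.6 and 53.6 in the mutant samples and of at most 32.5 in the control samples, and was not well above background in any of them. The Calca probes (chromosome 7, 121775204 to 121775263 and 121776948 to 121777007, mm9) were not well above background in any sample either, with signals from 61.0 to 78.5 in the mutant channel and from 32.4 to 47.7 in the control channel. None of the 3 was tested, and for Nts and Calca a difference was not detectable at these signals.

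Counted together, 7 of the 10 members had a tested probe, and 6 of these were higher on both arrays. Over all tested probes 32.3% were higher on both arrays. Of the 7, Tac1, Vip and Penk passed the test as higher and 0 as lower, against 0.368% and 0.0135% of all tested probes, and Tac1 and Vip were chosen on this contrast, so nothing is read from the count. The same 3 were at least 2-fold higher on both arrays, where 0.485% of all tested probes were. On array 1 5 members were at least 2-fold higher, and on array 2 4 were (0.907% and 1.48% of all tested probes). Both mutant samples lay above both control samples for Tac1, Vip, Npy, Cartpt and Penk, as for 21.9% of all tested probes. Tac1, Cartpt, Grp and Penk entered the test on the replicate 1 array through the mutant channel alone, which favours a higher mutant level there. None of these counts is support for a change of the family.

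**Figure D2:**
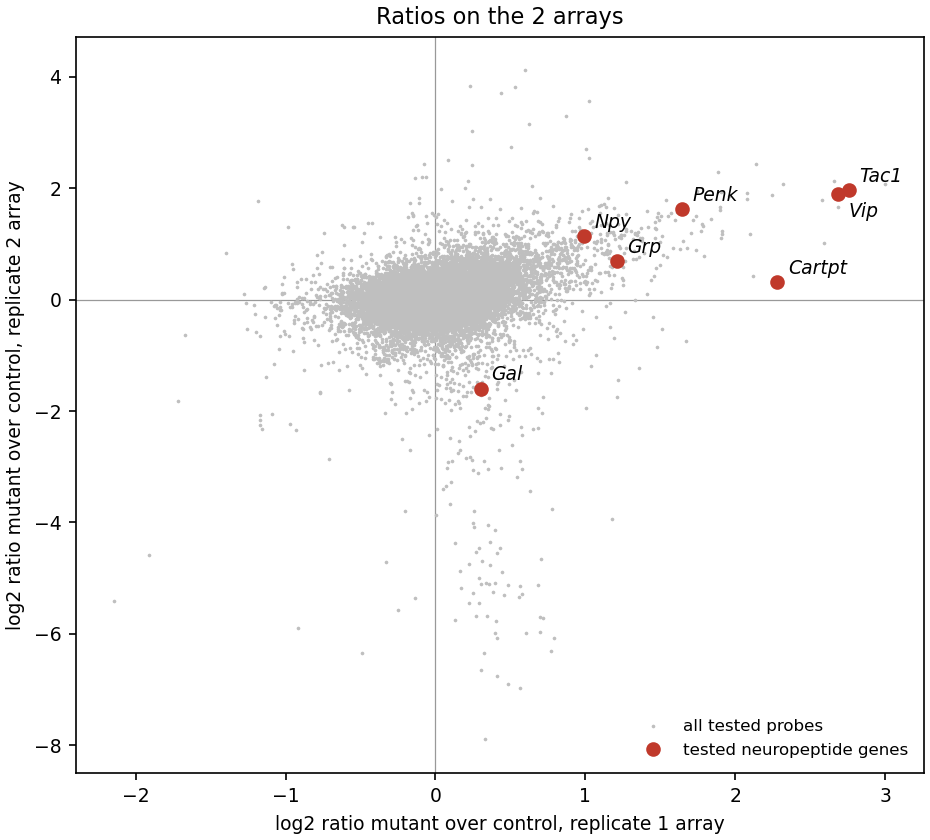
Log2 ratio of mutant over control for replicate 1 (horizontal axis) against replicate 2 (vertical axis) of all 22266 tested probes (grey) and the 7 tested neuropeptide genes (red). Tac1 (2.76 and 1.97), Vip (2.68 and 1.89) and Penk (1.65 and 1.63) are far out in the upper right, Cartpt is high on the horizontal axis alone, and Gal lies below 0 on the vertical axis.

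The members also varied between samples of 1 genotype. In 6 of the 7 tested members the control sample of replicate 2 was higher than that of replicate 1, by 1.74 for Tac1, 1.47 for Cartpt, 1.36 for Grp, 1.13 for Vip, 0.76 for Penk and 0.048 for Npy on the normalized log2 scale. Gal differed the other way, by -1.28. Only 3 of the 7 were well above background in the control sample of replicate 1, and all 7 were in that of replicate 2. The median over all tested probes of the same difference was -0.01. This gap between controls was larger than the log2 ratio on both arrays for Grp (1.21 and 0.70), and than that on the replicate 2 array for Cartpt (0.32). For Gal it exceeded in size the ratio on the replicate 1 array (0.30).

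Other genes of peptide signalling were measured through lists. Of 27 receptor genes 14 had a tested probe, and 0 passed in either direction (limma; lowest adjusted p = 0.184), with median log2 ratios of -0.02 and 0.17 beside 0.02 and 0.02 over all tested probes. Of these, 4 were higher and 2 lower on both arrays, where 32.3% of all tested probes were higher. On the replicate 1 array 3 of the 14 entered the test through the mutant channel alone, which favours a higher mutant level there. Adcyap1r1, the PACAP receptor, had ratios of 0.54 and 0.66 and did not pass (limma adjusted p = 0.184). Neither of its control samples was well above background, so it entered on both arrays through the mutant channel alone. The lower bound on its fold change was 1.42, which is no support for a rise, since the filter favoured that direction. Such a bound takes, on each array, the higher of the control level and the lowest level of any probe well above background in that channel, and it is open to dye bias. Npy4r, a receptor for pancreatic polypeptide, had -0.37 and -0.84, and Ramp2, a partner of the calcitonin receptor-like receptor, 0.33 and 0.32. The VIP receptor genes Vipr1 (-0.21 and -0.33) and Vipr2 (0.07 and -0.41) did not pass, nor did the neurokinin receptor gene Tacr2 (-0.10 and 0.17). The receptor for substance P, Tacr1, was not tested for want of signal, as were the neurotensin receptor genes Ntsr1 and Ntsr2.

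Among 47 other peptide precursor genes 22 were tested and 0 passed (limma, lowest adjusted p = 0.120), with medians of 0.20 and 0.20. On both arrays 8 were higher and 3 lower, beside 32.3% of all tested probes higher. The islet hormone gene Ppy, for pancreatic polypeptide, had log2 ratios of 2.59 and 1.02, Pyy, for peptide YY, 1.55 and 0.76, and the granin gene Scg2 0.38 and 1.34. The opioid precursor Pdyn, a relative of Penk, had 0.76 and 0.58. Tac2 and Tac4, the other tachykinin precursors, and Calcb, the second CGRP gene, were not well above background often enough to be tested.

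The enzymes that cut and finish the peptides did not pass either. All 7 processing genes were tested, with median log2 ratios of -0.0034 and 0.29, and 0 were called (limma; lowest adjusted p = 0.0753). Qpct, which makes the pyroglutamate end that neurotensin carries, had log2 ratios of 0.82 and 1.03, the amidating enzyme gene Pam 0.60 and 0.29, and Scg5, the 7B2 chaperone of the convertase PC2, -0.39 and -0.34. Peptidases that degrade neuropeptides had medians of 0.04 and 0.00 over 11 genes, with 0 called (limma; lowest adjusted p = 0.168). Neprilysin, the product of Mme, cleaves substance P, and Mme had log2 ratios of 0.43 and 0.48. Neither control sample of Mme was well above background (lower bound 1.11-fold). Mme thus entered the test on both arrays through the mutant channel alone, so the filter favoured this direction. The fibroblast peptidase gene Fap had 1.02 and 0.53, and the aminopeptidase gene Anpep -0.08 and -0.73. Fap and Mme were the 2 of the 11 peptidases that entered on the replicate 1 array through the mutant channel alone.

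Markers of other cells moved on the same arrays, and they are given here beside the neuropeptide genes. Of 33 neuron markers 22 were tested, 16 were higher and 3 lower on both arrays, and medians were 0.57 and 0.30. Over all tested probes 32.3% were higher on both arrays, and 0.368% passed as higher. On the replicate 1 array 7 of the 22 entered the test through the mutant channel alone, which favours a higher mutant level there. So did 4 of the 7 tested glia markers and 4 of the 12 stellate cell and fibroblast markers given below. The neuron marker Slc5a7, the glia marker Sox10 and the fibroblast marker Pdgfra entered in this way on both arrays. Gfra2, the neurturin receptor gene of parasympathetic neurons, rose (log2 ratios 1.47 and 1.11, limma adjusted p = 0.0458), and it was the 1 marker called. Its spot signals were 368 and 1120 in the mutant samples and 56.8 and 167 in the control samples. Stmn2, a neuronal microtubule regulator gene, had 1.26 and 0.83, and Gap43, a growth cone gene, 1.15 and 0.76. Th, for tyrosine hydroxylase, had -0.52 and -0.77.

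The neuron list stood at a median log2 level of 7.70 and 7.82 in the mutant samples and 6.88 and 7.57 in the control samples. In the mutant samples all 22 tested markers were well above background, against 15 for the first control sample and 20 for the second. A tested probe needed only 1 channel above background on each array, so the filter set these counts in part. Over all gene spots the mutant channel was also more often above background (41.0% and 48.2%, against 37.0% and 38.1% in the control channel). Nothing is read from the counts. The genes for making acetylcholine, nitric oxide and noradrenaline, Chat, Nos1 and Dbh, and the sensory channel genes Trpv1 and Scn10a were not well above background often enough to be tested. Schwann cell and glia markers exceeded the control on both arrays in 7 of 7 tested of 12 (medians 0.57 and 0.45), with 0 called (limma; lowest adjusted p = 0.0910). Of all tested probes 32.3% exceeded the control on both arrays. Fabp7 (0.77 and 0.86) and Pmp22 (0.89 and 0.68), both expressed by glia, and S100b (0.73 and 0.45) had the highest mean ratios. Gfap was not tested for want of signal. The value of Pmp22 is that of its brighter probe, and its other tested probe had 0.23 and 0.34.

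Among the lists, stellate cell and fibroblast markers had the median ratios nearest in size to those of the neuropeptide genes (1.65 and 1.14). The latter include Tac1 and Vip, chosen for their high ratio, and genes that entered through the mutant channel alone. Their closeness to a raised list was thus set in part by the selection, and nothing is read from it. All 12 stellate cell and fibroblast markers exceeded the control on both arrays (medians 1.71 and 1.21), where 32.3% of all tested probes were higher. Col1a1, Col1a2, Col3a1, Dcn, Lum and Thy1 rose, while 6 did not pass. Among all tested probes 0.368% passed as higher. Lum entered on the replicate 1 array through the mutant channel alone, which favoured its rise there. Col1a1, a chain of type I collagen, had log2 ratios of 2.66 and 2.13 (limma adjusted p = 0.0262), and Dcn, for decorin, 2.69 and 1.89 (limma adjusted p = 0.0301). The list's median log2 levels were 9.27 and 10.11 in the mutant samples and 7.36 and 8.67 in the control samples. Like the neuropeptide genes, these markers were higher in the control sample of replicate 2 than in that of replicate 1, by a median of 1.34. The part of stromal or neural cells in the ratios of Tac1, Vip and Penk was not tested.

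Smaller shifts were seen in markers of vessels and ducts, beside 32.3% of all tested probes higher on both arrays and 0.368% passing as higher. Of 8 endothelial markers 7 were higher on both arrays (medians 0.42 and 0.58), and Vwf rose (1.61 and 1.58) on 1 of its 2 probes. Of 7 tested duct markers 5 were higher on both arrays (medians 0.53 and 0.40), and Spp1 and Tspan8 rose. Smooth muscle markers (medians 0.45 and 0.69 over 5 genes), leukocyte markers (-0.01 and 0.15 over 6) and islet endocrine markers (-0.08 and 0.25 over 12) had 0 called (limma; lowest adjusted p from 0.0753 to 0.298). Acinar markers were at medians of 0.48 and -5.10 over 10 genes, with 0 called (limma; lowest adjusted p = 0.492), and their median log2 level was 17.00 and 11.53 in the mutant samples and 16.36 and 17.57 in the control samples. The part of acinar RNA in the ratios of the neuropeptide genes was not tested.

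**Figure D3:**
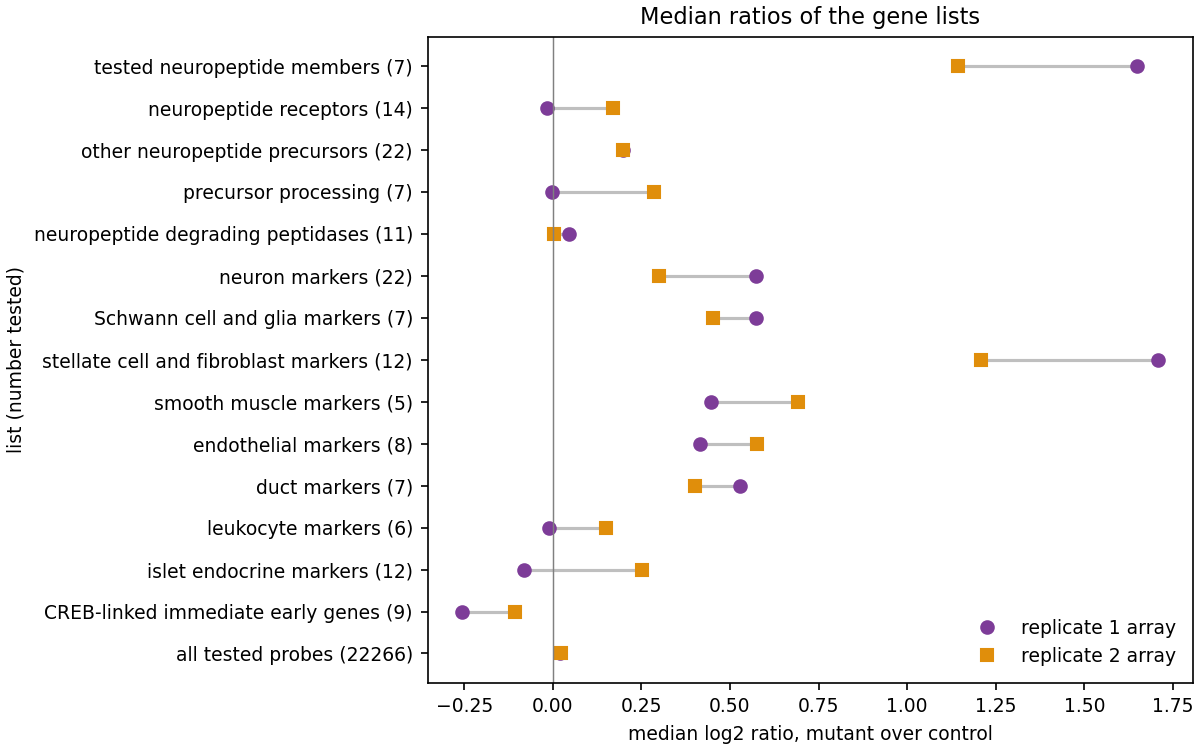
Median log2 ratio of mutant over control (horizontal axis) on the replicate 1 array (circles) and the replicate 2 array (squares) for the tested neuropeptide members and the gene lists, with the number tested in brackets. The stellate cell and fibroblast list (1.71 and 1.21) lies beside the neuropeptide members (1.65 and 1.14). Of these members 4 entered the test on 1 array through the mutant channel alone, and Tac1 and Vip were chosen for their high ratio. Receptors, processing enzymes and peptidases lie near all tested probes, and acinar markers (0.48 and -5.10) are left out of the axis range.

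Genes with patterns most like those of Tac1 and Vip were looked up over the 4 samples among the 17104 genes with a tested probe. The measure was the root mean square difference of the 4 normalized log2 levels, each centred on the gene's own mean. Nearest to Tac1 were Lum at 0.196, Dcn at 0.234, Crispld2 at 0.293, Col3a1 at 0.362 and Serpinf1 at 0.372. Nearest to Vip were Dcn at 0.076, Lum at 0.142, Crispld2 at 0.338, Plxdc2 at 0.375 and Vim at 0.392. Like Tac1, Lum and Serpinf1 were not well above background in the control sample of replicate 1. Lum and Dcn encode small proteoglycans of the collagen matrix, Col3a1 a fibrillar collagen and Vim vimentin, the intermediate filament of mesenchymal cells. For comparison Tac1 and Vip were 0.309 apart, Penk was 0.379 from Vip and 0.508 from Tac1, and Gal was 2.11 from Vip. With 4 values from 2 arrays these distances describe the samples only.

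Genes that cAMP and calcium induce through CREB, the factor known to act on the promoters of several peptide genes, were listed as well. Of 10 such immediate early genes 9 were tested, with medians of -0.26 and -0.11, 2 higher and 4 lower on both arrays. Egr1 fell (-1.13 and -1.39, limma adjusted p = 0.0446), and Fos had -0.93 and -2.33 and did not pass. Among all tested probes 32.3% were higher on both arrays, and 0.0135% passed as lower. Egr1 levels were 10.43 and 7.33 in the mutant samples and 11.56 and 8.72 in the control samples, so replicates of 1 genotype differed by more than the fall. The list's median turned positive (0.62) with median centring, where all tested probes were themselves at 0.39 and 0.84.

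The promoters of Tac1 and Vip, the 2 genes chosen for their high ratio, are shown as a description. Their alike ratios follow in part from that choice. The 250 bases before the gene start were read from RefSeq sequence of GRCm38.p6, at chr6:7554811-7555060 for Tac1 and chr10:5638968-5639217 for Vip, both on the plus strand. Capitals mark TGACG, the first letters of the CREB site TGACGTCA, and TATAAA, each on either strand.
Tac1: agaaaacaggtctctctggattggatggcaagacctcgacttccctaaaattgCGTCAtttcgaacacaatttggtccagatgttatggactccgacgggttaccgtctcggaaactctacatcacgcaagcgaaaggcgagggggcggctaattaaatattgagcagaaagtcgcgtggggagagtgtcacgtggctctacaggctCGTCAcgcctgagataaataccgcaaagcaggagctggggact
Vip: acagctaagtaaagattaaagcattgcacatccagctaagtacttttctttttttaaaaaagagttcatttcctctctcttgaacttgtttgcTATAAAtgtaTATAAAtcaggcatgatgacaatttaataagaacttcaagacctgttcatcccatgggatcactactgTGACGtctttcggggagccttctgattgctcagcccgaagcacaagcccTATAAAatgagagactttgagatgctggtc

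Tac1 holds TGACG 2 times, beginning 197 and 43 bases before the start, and Vip 1 time, beginning 79 bases before it. Vip also holds TATAAA 3 times, the last beginning 30 bases before the start. Of the 8 members whose promoter window was read (9 windows, 2 of them for Adcyap1), 6 hold TGACG, namely Tac1, Vip, Cartpt, Nts, Adcyap1 and Calca, against 17.8% of 32851 windows. The whole site TGACGTCA is in 1 of them, Cartpt, against 1.55% of windows, and there it overlaps TGACG on both strands. TATAAA is in 2 of them, Vip and Adcyap1, against 12.4% of windows. Nts and Calca hold the letters too, and were not well above background in any sample. A match is a description of these letters and not a site.

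**Figure D4:**
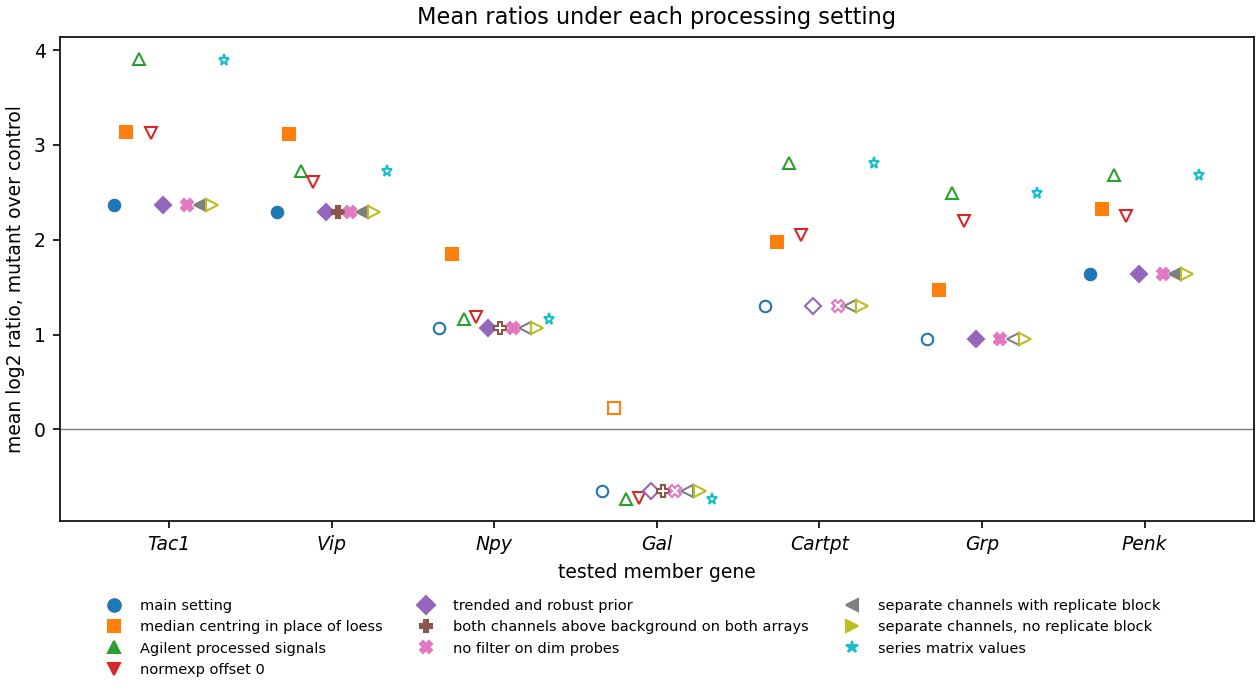
Mean log2 ratio of mutant over control (vertical axis) of the 7 tested members under the main setting and 9 alternatives (symbols), filled where the limma adjusted p was under 0.05. The alternative with the replicate block repeats the main test. The means of Tac1, Vip and Penk lie between 1.64 and 3.91 in the settings that tested them, with open symbols in 4 of them, and Gal is above 0 with median centring alone.

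All 12 islet endocrine markers were well above background in every sample. Over both arrays, 41.0% and 48.2% of gene spots were well above background in the mutant channel and 37.0% and 38.1% in the control channel, with 0 saturated. Tac1 had log2 ratios of 5.70 and 2.12 with Agilent's processed signals in place of 2.76 and 1.97. The offset of 50 in normexp by construction draws the ratios of dim spots towards 0, and with an offset of 0 the mean of Tac1 was 3.13. Vip, with 4 measured levels, had 3.41 and 2.03 in place of 2.68 and 1.89.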

How the data were processed

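The deposited intensity columns hold, per the file headers, mean spot signals, median local backgrounds and processed signals that Agilent Feature Extraction 10.7.3.1 corrected for background and dye, and probes are placed on mm9. The deposited log10 ratios are red (Cy5, mutant) over green (Cy3, control), per the file headers. The series matrix holds the same log10 ratios (largest difference 0). Background correction (normexp, offset 50) was done with limma 3.58.1 under R 4.3.3, and ratios were normalized by loess within arrays (span 0.3). Levels per channel were then scaled between arrays (Aquantile). Outlier spots (4 per array) were left out. Tested were probes for which, on each array, at least 1 channel was well above background. The 2 log2 ratios were set against 0 in a two-sided moderated limma test (lmFit, eBayes), with p-values adjusted over 22266 probes by Benjamini-Hochberg and a threshold of 0.05. Residual degrees of freedom are 1 per probe, to which the prior adds 4.90. The brightest tested probe stood for a gene, and loess assumes that most probes are alike at each brightness.

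Members, lists and tests were chosen with earlier results of these data known. Named are all members, list genes that passed, up to 3 further genes of each list with the largest mean ratio of 1 sign on both arrays (left out for some lists), and the 5 genes nearest to Tac1 and Vip. Other receptors, precursors and markers named were chosen after their values were seen. Probe names were updated through RefSeq tables of GRCm38.p6 (26762 of 55681 probes by accession, 3819 by symbol, 634 by synonym).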

Additional observations from a re-analysis of the deposited data

How the results depend on the processing

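Samples of 1 array form a pair. Fitting the channels separately with the replicate block is the same paired comparison, so its 85 probes and 3 members were fixed in advance and are no check. Without the block 0 probes, 0 members and 0 list genes passed with limma (1497 probes at an unadjusted p under 0.05). Also 0 probes, members and list genes passed with Agilent's processed signals (2351 probes unadjusted), with a normexp offset of 0 (2471) and with the series matrix values (2355). More passed with median centring (6735 probes, 6 members and 94 list genes, against 85, 3 and 11), with a trended and robust prior (564, 5 and 35) and with no filter on dim probes (355, 5 and 24). With both channels above background on both arrays 1 member passed, Vip, of the 3 that such a filter left, Vip, Npy and Gal. Gal changed sign with median centring (0.23). The means of Tac1 ran from 2.36 to 3.91 over 8 alternatives and those of Vip from 2.29 to 3.11 over 9, each losing its call in 4. These alternatives include the fit with the replicate block, which repeats the main test. Of the 4, processed signals and series matrix values are nearly the same data, with Vip means of 2.72 and 2.73. Leaving out an array gives 1 ratio and no test, with 1.97 and 2.76 for Tac1, 1.89 and 2.68 for Vip, 1.63 and 1.65 for Penk, and -1.60 and 0.30 for Gal. The calls rest on a spread borrowed from all probes, since each has 1 residual degree of freedom.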
